A study of Mus musculus with 51 samples.

Results

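The odorant receptors (ORs) described here are those of mice that smelled undiluted SBT, set against mice that received diluent. They are all 1117 intact *Olfr* genes of the count table, in 3 libraries labelled as the 100% SBT odor group and 3 libraries labelled as control for both 1% and 100% SBT, 6 of the 51 libraries of the series. SBT, 2-sec-butyl-4,5-dihydrothiazole, is a volatile of male mouse urine that the study synthesized as a racemate. Each library came from the whole olfactory mucosa of a single wild-type mouse about 3 weeks old, of either sex, which had been exposed for 1 hr to 10 μL of stimulus on a blotting pad and belonged to the C57BL/6J strain that the study's methods name. Undiluted SBT contains no diluent, whereas the control mice received water or ethanol; the labels do not say which, and lower doses of SBT were diluted in water. The same 3 control mice served the 1% SBT group. The sex of each mouse is not in the labels, and the table holds *Olfr* genes alone, so that markers of other cell types of the mucosa could not be read.

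Each mature olfactory sensory neuron (OSN) expresses a single OR, a G protein-coupled receptor that sets which odorants the neuron detects. Neural activity leads to phosphorylation of the ribosomal protein S6, and an antibody against phosphorylated S6 (pS6) pulls down ribosomes together with the mRNA they carry. In this assay, pS6-IP-Seq, the OR mRNAs of activated OSNs take a larger share of the OR reads, and since each OR marks its own set of OSNs, the table reads out which receptors responded to a smell. Mouse ORs fall into class I, a fish-like group encoded in a single cluster on chromosome 7 and known for ligands such as carboxylic acids, and the larger class II, spread over clusters on most chromosomes. Close relatives often sit side by side in a cluster, as copies of an ancestral gene. A value in bulk tissue cannot tell fewer cells of a type from less pS6-bound RNA per cell.

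Total OR reads ran from 27301 to 57154 in the control libraries and from 57551 to 104517 in the SBT libraries, so every SBT library was deeper. Reads were seen for 972 to 1023 of the 1117 ORs in a control library and for 1031 to 1052 in an SBT library. Of the 1117 ORs, 1050 had at least 10 reads over the 6 libraries and were tested, and 67 did not, 27 of them without a read. Levels below are reads scaled by trimmed-mean (TMM) factors per 1000000 OR reads, called scaled reads, and are not divided by gene length. Folds are log2 fold changes of SBT over control with the standard error from edgeR's quasi-likelihood fit, and a receptor was called at a Benjamini-Hochberg adjusted p under 0.05. These p-values rest on the spread between libraries, with 3 mice in each group and 1 library per mouse. Replicates 1 and 2 of both groups carry 1 title prefix in the labels and replicate 3 another, so each prefix holds both groups.

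Undiluted SBT moved a broad set of receptors upwards. Of 1050 ORs tested, 112 were higher after SBT (10.7%) and 8 were lower (0.762%). The higher ORs took 13.9%, 14.7% and 15.1% of the OR reads in the 3 control mice and 43.1%, 44.4% and 41.0% in the 3 SBT mice, a description of ORs chosen on these libraries. Their log2 fold changes had a median of 2.18, 68 of them exceeded 2 and 20 exceeded 3. For each of the 112, all 3 SBT libraries lay above all 3 control libraries, as was the case for 181 of the 1050 ORs (17.2%), and each of the 8 lower ORs was among the 107 (10.2%) with all SBT libraries below all control libraries. Replicates 1 and 2 alone called 62 higher and 1 lower, and the replicate 3 pair allows no test. Of the 112, 79 stayed past the threshold whichever library was left out. Under each of the 17 alternative settings (listed below) that tested them, 54 stayed past it. A fit that pairs the mice by replicate number called 125 ORs higher, including 111 of the 112, and 18 lower, including 7 of the 8. Scaling by total OR reads without TMM factors moved the median of all ORs from -0.07 to -0.47 and the calls to 85 higher and 42 lower. The folds that follow are on the TMM scale. With all libraries thinned to 27301 reads, the median count over 20 thinnings was 110 higher and 8.5 lower.

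**Figure D1:**
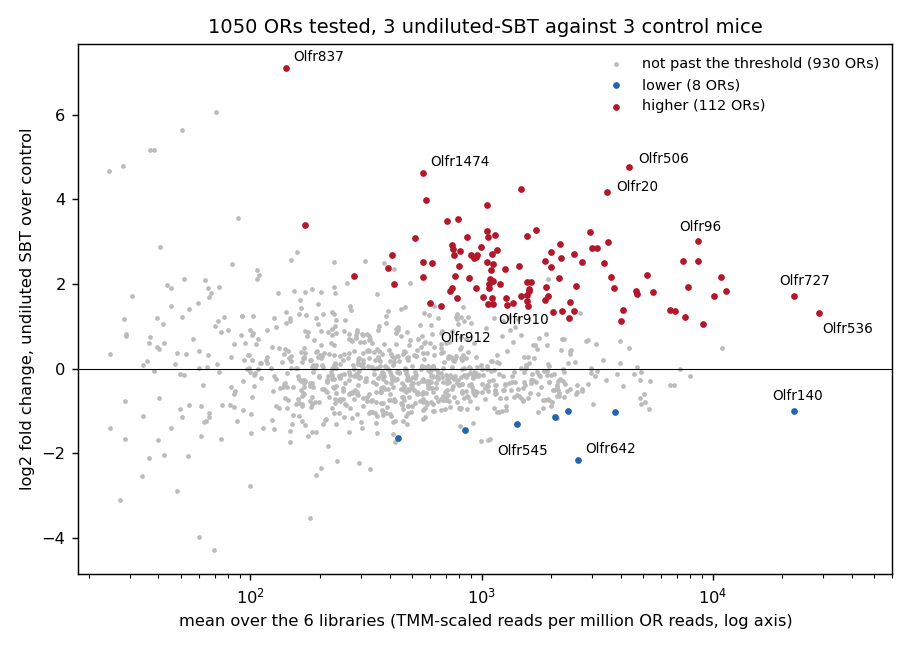
Log2 fold change of undiluted SBT over control for the 1050 ORs tested (y axis) against the mean scaled reads over the 6 libraries (x axis, log scale). Each point is an OR. The 112 higher ORs (red) span nearly the whole range of levels, the 8 lower ORs (blue) lie closer to 0 than most of them, and *Olfr837* at the top left had no read in any control library.

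The receptor with the lowest p was *Olfr506* (chr7:108610787-108615340, GRCm38). It stood at 474, 152 and 310.4 scaled reads in the control mice and at 9487, 6794 and 8811 in the SBT mice. These were 23, 10 and 10 reads in the control mice and 654, 613 and 461 in the SBT mice, so the fold rests on few control reads. The groups were far apart (log2 fold change 4.77 ± 0.41, adjusted p = 2.62e-05). Its nearest relative by protein sequence, *Olfr502*, with 83.4% identical residues, lies in the same cluster on the other strand and also rose (log2 fold change 2.06 ± 0.42, adjusted p = 0.00432), from 659, 379 and 248 scaled reads to 1422, 2139 and 1911. The ratio of *Olfr506* to *Olfr502* reads was 0.719, 0.400 and 1.25 in the control mice and 6.67, 3.18 and 4.61 in the SBT mice. The control ratios rest on 32, 25 and 8 *Olfr502* reads. The lowest ratio of an SBT mouse thus exceeded the highest of a control mouse. The coding sequences differ at 131 of 942 bases. The stretch where they differ most is shown to let the reader see how far apart 2 responding receptors can be, with the 44 bases that differ between them in capitals (exonic coding sequence, bases 502 to 651 of each, GENCODE M21 on GRCm38; *Olfr506* at chr7:108612810-108612959, plus strand, *Olfr502* at chr7:108523298-108523447, minus strand).
Olfr506: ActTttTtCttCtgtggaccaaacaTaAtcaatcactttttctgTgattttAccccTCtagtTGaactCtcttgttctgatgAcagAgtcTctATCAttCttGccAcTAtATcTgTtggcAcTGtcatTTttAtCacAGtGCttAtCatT
Olfr502: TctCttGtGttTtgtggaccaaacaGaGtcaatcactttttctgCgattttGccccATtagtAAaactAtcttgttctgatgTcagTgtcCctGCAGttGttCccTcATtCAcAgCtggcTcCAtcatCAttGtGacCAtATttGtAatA

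The next receptors in order of p lie in different clusters. *Olfr96* on chromosome 17 stood at 1565, 2303 and 1831 scaled reads in the control mice and at 13592, 17866 and 14468 in the SBT mice (log2 fold change 3.01 ± 0.27, adjusted p = 2.62e-05). *Olfr30* on chromosome 11 went from 4241, 3758 and 3849 to 17987, 18897 and 16532 (log2 fold change 2.17 ± 0.23, adjusted p = 7.67e-05). *Olfr11* on chromosome 13 went from 823, 849 and 652 to 5570.1, 8035 and 5198 (log2 fold change 3.00 ± 0.32, adjusted p = 7.67e-05). In each of these receptors every SBT mouse lay above every control mouse, and the replicates of a group stood close together. *Olfr20* on chromosome 11 rose from 268, 576 and 217 to 8152, 7958 and 3803 scaled reads (log2 fold change 4.16 ± 0.45, adjusted p = 7.67e-05), with the third SBT mouse the lowest of its group. *Olfr20* had 13, 38 and 7 reads in the control mice. *Olfr57* on chromosome 10 rose from 947, 652 and 714 to 5889, 5896 and 4893 (log2 fold change 2.85 ± 0.31, adjusted p = 7.67e-05).

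For *Olfr394* on chromosome 11 the control mice stood at 103, 167 and 124 scaled reads and the SBT mice at 1407, 2627 and 1892 (log2 fold change 3.86 ± 0.45, adjusted p = 1.31e-04). The control values were 5, 11 and 4 reads. For *Olfr706* on chromosome 7 the values were 288, 621 and 807 against 4845, 5409 and 5714 (log2 fold change 3.23 ± 0.38, adjusted p = 1.31e-04). *Olfr533*, *Olfr376*, *Olfr392*, *Olfr1297*, *Olfr1474*, *Olfr1054*, *Olfr3*, *Olfr350*, *Olfr1459*, *Olfr1087*, *Olfr1104* and *Olfr166* complete the 20 lowest p-values, with log2 fold changes from 1.81 (*Olfr1104*) to 4.62 (*Olfr1474*) and adjusted p at most 3.42e-04. Each of these 20 stayed past 0.05 under all 17 alternatives tried. *Olfr1104* had the tightest groups of them, at 2491, 2470.1 and 2390.0 in the control mice and 8544, 8634 and 8677 in the SBT mice. Its nearest relative shares 55.9% of residues, and no stretch of 50 bases of its transcripts occurs in another OR.

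**Figure D2:**
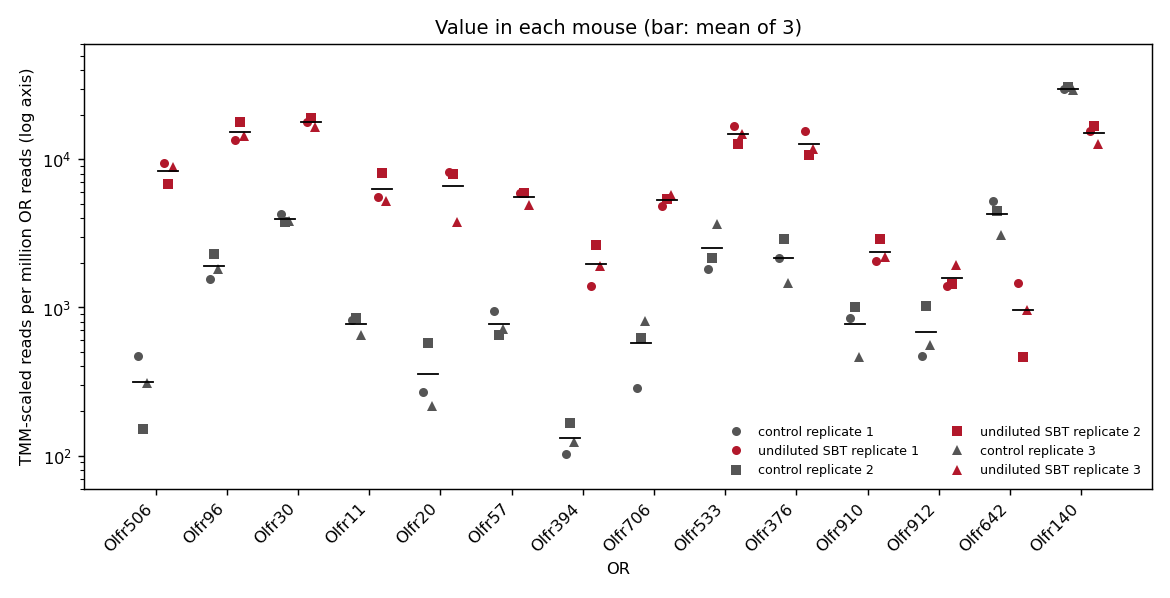
Scaled reads (TMM-scaled reads per 1000000 OR reads, log axis) of 14 named ORs in each of the 3 control mice (grey) and 3 undiluted-SBT mice (red). The marker shape gives the replicate number and the bar the mean of 3. The groups are separate for each OR shown, with *Olfr642* and *Olfr140* lower after SBT.

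Among the 112, the 5 largest fitted folds belonged to *Olfr837*, *Olfr506*, *Olfr1474*, *Olfr1477* and *Olfr20*. *Olfr837* on chromosome 9 had 0 reads in every control mouse and 24, 30 and 9 reads in the SBT mice (adjusted p = 0.00678). Against a floor of 3 reads in each control library it was at least 4.26-fold higher. *Olfr1474* had 2 reads in each control mouse and 65, 146 and 34 in the SBT mice (log2 fold change 4.62 ± 0.61, adjusted p = 2.57e-04). Its relative *Olfr1471*, with 96.2% identical residues, also rose (log2 fold change 2.35 ± 0.45, adjusted p = 0.00290), and 26.2% of the 50-base stretches in transcripts of *Olfr1474* occur in another OR, so part of its reads could have been split between them. *Olfr1477*, in the same cluster on chromosome 19, had 0, 15 and 7 reads in the control mice and 189, 306 and 122 in the SBT mice (log2 fold change 4.24 ± 0.63, adjusted p = 5.22e-04). In each of these scarce receptors the fold rests on few control reads. Receptors with many reads rose too, by smaller folds. *Olfr536* took the most OR reads of any receptor in SBT mice 1 and 3, at 45446, 35356 and 42142 scaled reads against 19537, 12608 and 17475 in the control mice (log2 fold change 1.31 ± 0.22, adjusted p = 0.00117). *Olfr727*, named for taking the most OR reads in SBT mouse 2, went from 11817, 11184 and 8536 to 43081, 36974 and 23469 (log2 fold change 1.71 ± 0.26, adjusted p = 5.75e-04).

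Fewer receptors made up the bulk of the reads in each SBT mouse than in any control mouse. At equal depth, the number of ORs that together made up 50% of the OR reads was 112, 124 and 120 in the control mice and 80, 89 and 97 in the SBT mice. The groups did not overlap (two-sided exact permutation p = 0.1, the smallest that 3 against 3 allow). *Olfr140* took the most reads of any OR in each control mouse, between 3.28% and 3.53%, and was one of the 8 lower ORs. The leading OR of an SBT mouse took between 3.19% and 3.84%.

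Many of the higher receptors lay near another one. Of the 112, 81 (72.3%) had another higher OR within 100 kb, against 297 of the 938 tested ORs not called higher (31.7%). Of the 112, 63 (56.2%) fell into 13 runs of at least 3, in which each lies within 100 kb of the next. The longest run spans chr7:140334017-140678580, where 13 ORs lie and 9 of them rose. There *Olfr533* (log2 fold change 2.55 ± 0.30, adjusted p = 1.39e-04), *Olfr535* (2.50), *Olfr46* (1.95), *Olfr531* (1.94), *Olfr539* (1.90), *Olfr61* (1.56), *Olfr60* (1.38), *Olfr536* (1.31) and *Olfr527* (1.12) passed the test. Between them, *Olfr530* (log2 fold change 0.27 ± 0.39, adjusted p = 0.774) and *Olfr538* (log2 fold change -0.18 ± 0.43, adjusted p = 0.885) did not pass. *Olfr53* (1.12 ± 0.45, adjusted p = 0.155) and *Olfr532* (0.61 ± 0.55, adjusted p = 0.605), also inside the run, did not pass either. *Olfr530* is the nearest relative of *Olfr533*, with 91.2% identical residues. *Olfr533* stood at 1832, 2152 and 3632 scaled reads in the control mice and at 16768, 12668 and 14812 in the SBT mice. Left-out libraries ended the calls of *Olfr527* (without control mouse 1 or 2, or SBT mouse 1 or 3, adjusted p up to 0.111) and *Olfr61* (without control mouse 2 or 3 or any SBT mouse, up to 0.126).

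On chromosome 19, 7 of 11 ORs at chr19:12930840-13236400 rose, and on chromosome 11, 6 of 8 at chr11:73774849-73942658. The run on chromosome 19 held *Olfr1449* (3.09), *Olfr1451* (2.92), *Olfr1457* (2.69), *Olfr1454* (2.68), *Olfr1459* (2.40), *Olfr1463* (2.22) and *Olfr1461* (1.68). *Olfr1458*, between *Olfr1457* and *Olfr1459*, stood at -1.71 ± 0.56 (adjusted p = 0.0721). *Olfr1450* (-0.36 ± 1.02) did not pass, nor did *Olfr1462*, with 0 reads in every control mouse and 8, 10 and 4 in the SBT mice (adjusted p = 0.0934). On chromosome 11 the members were *Olfr394* (3.86), *Olfr392* (2.85), *Olfr389* (2.48), *Olfr390* (2.18), *Olfr23* (1.91) and *Olfr393* (1.90). *Olfr391* lies inside the run and stood at -0.03 ± 0.48 (adjusted p = 0.994), and *Olfr395* stood at -1.26 ± 1.40 (adjusted p = 0.695). A run on chromosome 16, also of 6, follows it in order of position. The calls of *Olfr1461* (adjusted p = 0.0514 without SBT mouse 3), *Olfr23* (0.0521 without SBT mouse 1) and *Olfr389* (up to 0.0546 without control mouse 2 or SBT mouse 2 or 3) were lost with a library left out. Each of these 3 runs held ORs that did not pass the test among those that did.

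**Figure D3:**
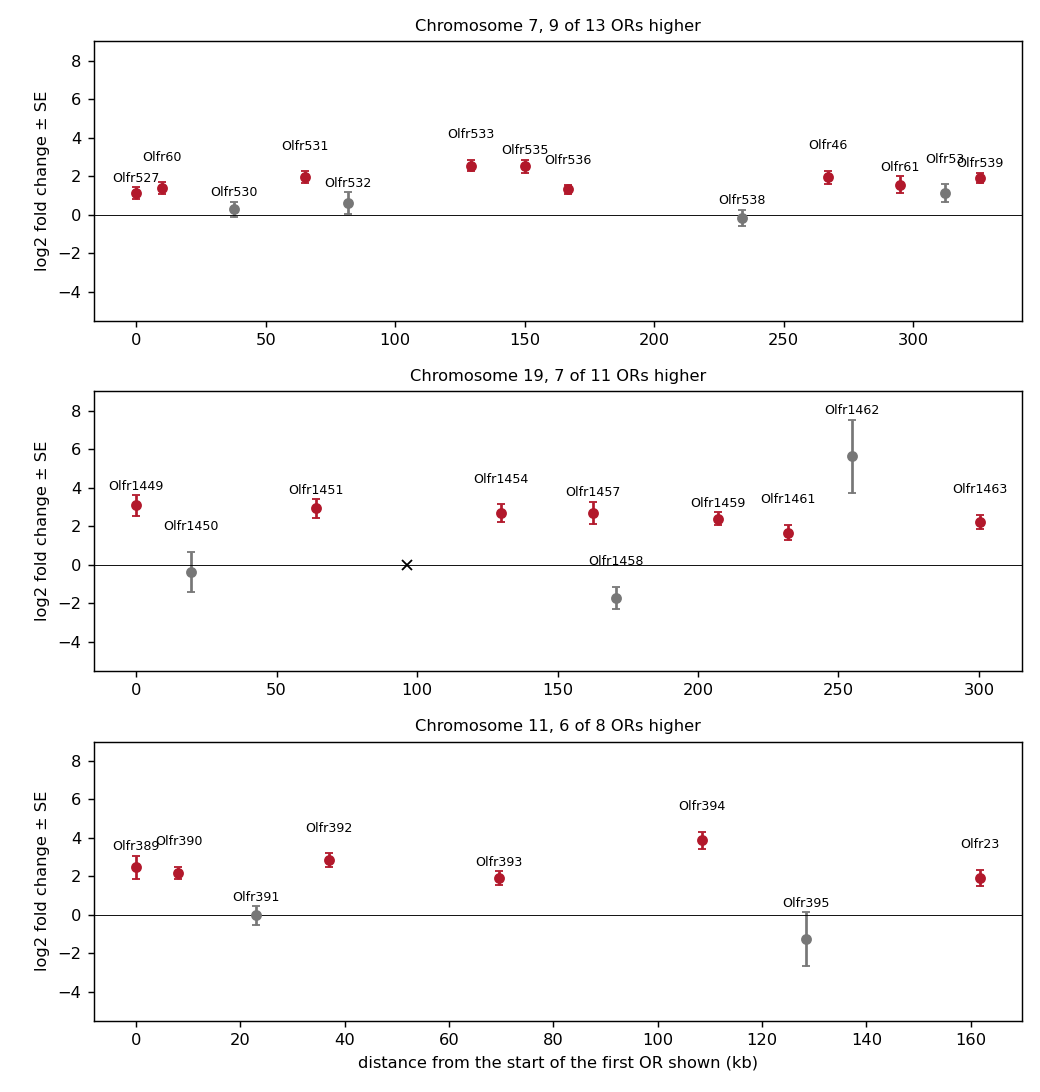
Log2 fold change with standard error (y axis) of each tested OR in the runs on chromosomes 7, 19 and 11, against its distance in kb from the start of the first OR of the run (x axis). Red points are higher ORs, grey points did not pass the test, and the cross at 0 marks *Olfr1453*, which was not tested. In each panel the grey points lie below the red points, apart from *Olfr53* (1.12), just above *Olfr527* on chromosome 7, and *Olfr1462* (5.63) on chromosome 19, which had no read in the control mice.

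By chromosome, the share of higher ORs ranged widely around the 10.7% of all ORs. On chromosome 16, 13 of 37 tested ORs were higher, none was lower and the median log2 fold change was 1.04, against -0.07 over all ORs. The count of 13 fell to 8 without SBT mouse 3. Under every alternative the chromosome 16 median exceeded that of all ORs, by 0.73 to 1.26. Chromosome 7 outside the class I cluster had 22 of 104 higher (median 0.46), a list added after its values were seen. Chromosome 11 had 15 of 80 and chromosome 19 had 11 of 59. Chromosome 17 had 8 of 48, which became 4 without SBT mouse 3 and 5 without SBT mouse 2 or control mouse 3. The chromosome 19 median of 0.34 ranged from -0.05 to 0.39 over the alternatives, and the chromosome 17 median of 0.15 from -0.25 to 0.41. The largest sets, on chromosomes 2, 7 as a whole and 9, stood nearer the background with 22 of 268, 22 of 221 and 12 of 119. None was higher by edgeR or DESeq2, or at an unadjusted p under 0.05, among 27 on chromosome 1, 22 on chromosome 4 and 9 on chromosome 15. ORs of one chromosome are often relatives and are not independent of each other.

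**Figure D4:**
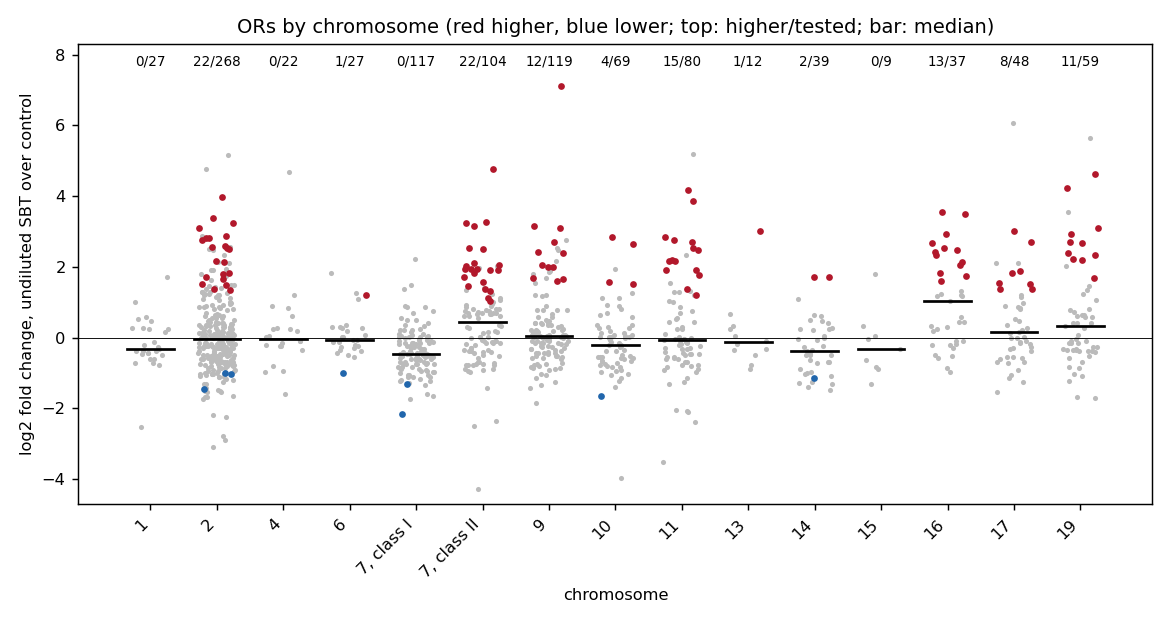
Log2 fold change (y axis) of the tested ORs by chromosome (x axis), with chromosome 7 divided into class I and class II. Red points are higher and blue points lower ORs, the bar is the median, and the numbers on top give higher over tested ORs. Class I has no red point among 117, and chromosome 16 has the highest median; chromosomes 3, 8 and X, with at most 6 tested ORs each, are not drawn.

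Class I receptors, by contrast, held no call upwards. Of the 117 tested among 127, none was called higher by edgeR, by DESeq2 or under any other alternative, 1 was higher at an unadjusted p under 0.05, *Olfr642* and *Olfr550* were lower, and the median log2 fold change was -0.47 against 0.01 for class II. Of class II, 112 of 933 were higher and 6 lower. The class I median lay below that of all ORs under every alternative, by 0.29 to 0.55. The class I share of the OR reads was 11.4%, 10.8% and 10.0% in the control mice and 5.79%, 5.50% and 6.47% in the SBT mice. These groups did not overlap (two-sided exact permutation p = 0.1, the smallest possible). Each share is relative to the reads of all ORs in the library. The 112 higher ORs, none of them class I, took 13.9% to 15.1% of those reads in the control mice. In the SBT mice they took 41.0% to 44.4%, which lowers the share left to all other ORs. How much of the class I fall goes with that rise was not tested.

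Among receptors that earlier work has studied for their ligands, none of 12 tested passed edgeR's or DESeq2's test, 1 was lower at an unadjusted p under 0.05, and 10 of them had log2 fold changes below 0. Over all 1050 ORs, 10.7% were higher and 499 had log2 fold changes above 0. They include *Olfr73*, the eugenol receptor (-0.48 ± 0.59), *Olfr16*, which detects lyral (-0.44 ± 0.35), *Olfr2*, known for octanal (-0.94 ± 0.63), and *Olfr1509*, which detects MTMT, another volatile of male urine (-0.69 ± 0.34). *Olfr78* and *Olfr558*, both known for short-chain acids, stood at -0.54 ± 0.44 and -0.75 ± 0.40. *Olfr545*, which detects dicarboxylic acids, had the lowest value at -1.65 ± 0.66 (adjusted p = 0.155), from 3582, 894 and 497 scaled reads in the control mice and 522, 842 and 191 in the SBT mice, so that its groups overlapped. *Olfr151* was not tested.

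*Olfr166* and *Olfr168* on chromosome 16 form a near-identical pair with unlike values. They share 95.8% of their residues, and their coding sequences differ at 39 of 936 bases. *Olfr166* stood at 5167, 3758 and 6115 scaled reads in the control mice and at 19002, 15628 and 18939.8 in the SBT mice (log2 fold change 1.84 ± 0.25, adjusted p = 3.42e-04). *Olfr168* stood at 12229, 3243 and 3321 and at 4265, 2527 and 3689 (log2 fold change -0.85 ± 0.46, adjusted p = 0.331). The ratio of *Olfr166* to *Olfr168* reads was 0.423, 1.16 and 1.84 in the control mice and 4.46, 6.18 and 5.13 in the SBT mice, so the lowest ratio of an SBT mouse exceeded the highest of a control mouse. The difference between the receptors was not tested. Of the 50-base stretches in transcripts of *Olfr166*, 8.85% occur in another OR. The first 150 bases of both coding sequences hold 16 of the differing bases, in capitals, and are shown because they are what separates the reads of the pair there (exonic coding sequence, GENCODE M21 on GRCm38; *Olfr166* at chr16:19486840-19486989, plus strand, *Olfr168* at chr16:19530769-19530918, minus strand).
Olfr166: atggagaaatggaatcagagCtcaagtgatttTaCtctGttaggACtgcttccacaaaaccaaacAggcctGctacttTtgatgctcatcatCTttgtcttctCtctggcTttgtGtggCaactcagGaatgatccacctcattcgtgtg
Olfr168: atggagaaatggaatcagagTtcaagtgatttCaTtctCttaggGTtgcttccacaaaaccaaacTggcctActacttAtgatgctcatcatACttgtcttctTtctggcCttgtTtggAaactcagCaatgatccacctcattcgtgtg

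Many of the higher receptors had a higher nearest relative. The nearest relative by protein sequence was also higher for 52 of 107 higher ORs with a tested relative (48.6%) and for 61 of 886 other ORs (6.88%). Since relatives share reads, the same was counted for ORs with under 1% of their 50-base stretches in another OR, where it was 21 of 38 (55.3%) and 28 of 388 (7.22%). These shares are a description of ORs that are neither independent nor chosen apart from these values. Responding relatives include *Olfr20* and *Olfr376* (90.0% identical residues), *Olfr706* and *Olfr701* (86.7%) and *Olfr1054* and *Olfr1087* (79.2%), whose log2 fold changes were 4.16, 2.54, 3.23, 3.27, 3.11 and 2.75 in that order. Higher ORs whose nearest relative, at 95% or more identity, did not pass the test were, besides *Olfr166*, *Olfr136* (1.83, with *Olfr138* at -0.68 ± 0.68), *Olfr726* (1.71, with *Olfr725* at -0.23 ± 0.56), *Olfr43* (1.76, with *Olfr403* at 0.31 ± 0.54), *Olfr1130* (3.98, with *Olfr1129* at 1.29 ± 0.95), *Olfr8* (2.63, with *Olfr1354* at 1.26 ± 0.44) and *Olfr910*, described next. Of the 50-base stretches in their transcripts, from 3.71% (*Olfr136*) to 30.2% (*Olfr43*) occur in another OR. The share was 24.1% for *Olfr8*, 17.8% for *Olfr910*, 16.5% for *Olfr1130* and 15.8% for *Olfr726*. Part of these reads could have been split between relatives. The ratio of *Olfr726* to *Olfr725* reads was 14.9, 10.8 and 17.6 in the control mice and 43.9, 62.8 and 60.6 in the SBT mice.

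*Olfr910* and *Olfr912* are the receptors the study followed for SBT. They share 96.5% of their residues and lie in the same cluster on chromosome 9. The stretch in which their coding sequences differ most is shown because the pair reappears at each dose (bases 631 to 780 of 930, exonic, GENCODE M21 on GRCm38, 15 differing bases in capitals; *Olfr910* at chr9:38539527-38539676, plus strand, *Olfr912* at chr9:38581909-38582058, plus strand).
Olfr910: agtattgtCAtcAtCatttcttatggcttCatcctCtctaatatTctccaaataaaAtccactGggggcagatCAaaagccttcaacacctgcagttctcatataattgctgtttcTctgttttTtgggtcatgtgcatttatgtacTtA
Olfr912: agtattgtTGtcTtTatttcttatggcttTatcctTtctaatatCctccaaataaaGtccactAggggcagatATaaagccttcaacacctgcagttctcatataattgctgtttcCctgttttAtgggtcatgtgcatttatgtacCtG

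*Olfr910* stood at 844, 1000.1 and 466 scaled reads in the control mice and at 2045, 2893 and 2198 after undiluted SBT (log2 fold change 1.60 ± 0.37, adjusted p = 0.00921). *Olfr912* stood at 474, 1015 and 559 and at 1407, 1429.8 and 1930.3 (log2 fold change 1.19 ± 0.39, adjusted p = 0.0716). For *Olfr912* all SBT mice lay above all control mice without passing the test, and with the replicate number as a block its adjusted p was 0.0453, within a range of 0.0217 to 0.377 over the alternatives. Neither ranks among the strongest receptors here, with *Olfr910* at rank 82 and *Olfr912* at rank 135 of 1050 by p. Of the 38 tested ORs within 500 kb of the pair, 5 were higher (13.2%, against 10.7% of all ORs): *Olfr146* (log2 fold change 2.71 ± 0.41, adjusted p = 5.75e-04), *Olfr921*, *Olfr913*, *Olfr914* and *Olfr930*, with log2 fold changes of 1.66, 1.69, 2.39 and 2.00 for the last 4. The median of the 38 was 0.29. *Olfr146* rose from 576, 667 and 776 to 4468, 6428 and 2198 scaled reads. Of the other ORs that the study followed for other odorants, *Olfr1295* (-0.20 ± 0.38), *Olfr1437* (1.46 ± 0.69) and *Olfr235* (-0.26 ± 0.50) did not pass the test.

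The lower doses of SBT were tested in the same way. After 0.01% SBT, against 3 other control mice, 5 of 1072 ORs were higher (0.466%), and after 1% SBT, against the same control mice as here, 9 of 1043 (0.863%). Of the 5 called at 0.01%, 3 (60%) were called after undiluted SBT, which is 2.68% of the 112. *Olfr921* had log2 fold changes of 1.84 ± 0.29, 2.26 ± 0.42 and 1.66 ± 0.36 at 0.01%, 1% and 100%, and *Olfr196* of 1.73 ± 0.32, 3.63 ± 0.61 and 2.05 ± 0.55. For *Olfr910* the values were 2.79 ± 0.31, 2.88 ± 0.45 and 1.60 ± 0.37, and for *Olfr912* 2.97 ± 0.40, 2.63 ± 0.44 and 1.19 ± 0.39. The study also stained OSNs of these 2 receptors and reports a pS6 signal that rose with SBT dose from 0.01% to 1%. Staining of single cells is another measure than a share of OR reads, and undiluted SBT was not among its doses. *Olfr714*, the fifth OR called at 0.01%, stood at 1.71 ± 0.32, 0.02 ± 0.84 and -0.16 ± 0.82. For each of these 5 ORs the standard error was larger at 1% than at 100%. How far unequal spread moves the number of calls at each dose was not tested. The call of *Olfr196* after undiluted SBT was lost without control mouse 3 or any SBT mouse (adjusted p up to 0.107). Of these 5, *Olfr196* alone had a larger fold at 100% than at 0.01%, a difference that was not tested. The 0.01% libraries carry a title prefix that no 1% or 100% library carries. Dose and library set therefore cannot be told apart between 0.01% and the other doses.

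The ORs called at 1% are given with both values, which share their control mice, and their agreement is not read as a result. Besides *Olfr910*, *Olfr912*, *Olfr921* and *Olfr196* above, *Olfr1085* stood at 3.55 ± 0.73 after 1% and 2.34 ± 0.72 after undiluted SBT. *Olfr376* stood at 1.87 ± 0.39 after 1% and 2.54 ± 0.31 after undiluted SBT, *Olfr186* at 2.13 ± 0.44 and 2.14 ± 0.37, *Olfr914* at 3.84 ± 0.60 and 2.39 ± 0.64, and *Olfr1353* at 2.59 ± 0.46 and 1.52 ± 0.41. In a fit of all 9 libraries of this experiment, undiluted SBT exceeded 1% SBT for 75 of 1050 ORs (7.14%) and fell below it for 4 (0.381%), named here after their values were seen: *Olfr912*, *Olfr545*, *Olfr1458* and *Olfr1258*. *Olfr912* was lower after undiluted than after 1% SBT by a log2 difference of -1.42 ± 0.38 (adjusted p = 0.0253), and *Olfr910* differed by -1.25 ± 0.38 (adjusted p = 0.0536). *Olfr506*, by contrast, was higher after undiluted than after 1% SBT by 4.42 ± 0.45 (adjusted p = 1.38e-05), with 0.11 ± 0.33 at 0.01% and 0.35 ± 0.65 at 1%. The median of the 112 higher ORs was 0.04 at 0.01% SBT and 0.39 at 1% SBT.

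**Figure D5:**
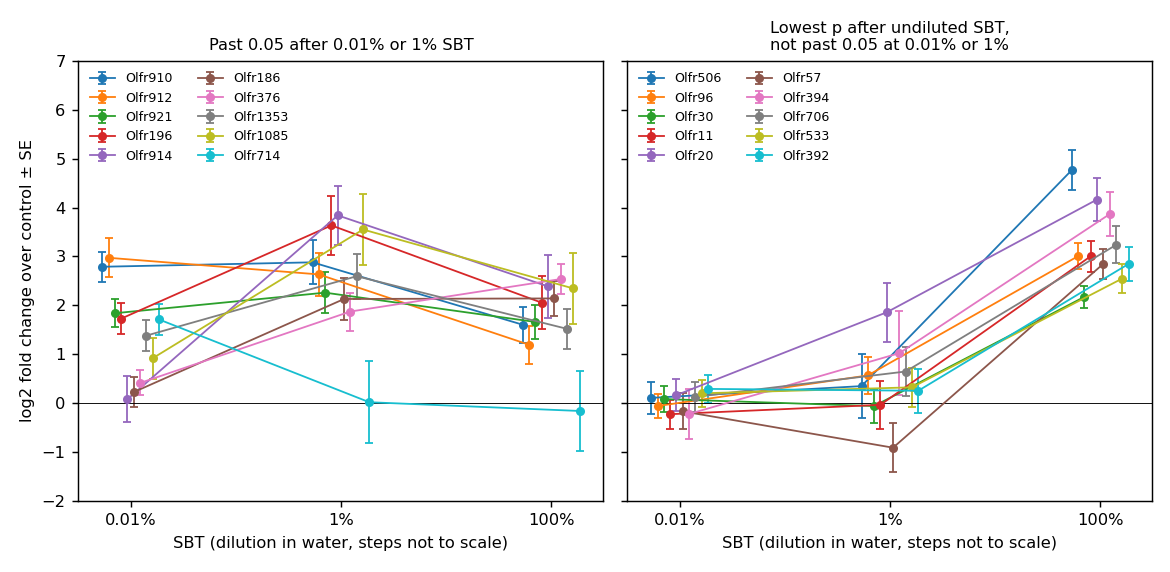
Log2 fold change over control with standard error (y axis) at 0.01%, 1% and 100% SBT (x axis, steps not to scale). Left, the 10 ORs called at 0.01% or 1%; right, 10 of the ORs with the lowest p after undiluted SBT. The ORs on the right lie near 0 at 0.01% and rise to between 2.17 and 4.77 at 100%. On the left, *Olfr910*, *Olfr912*, *Olfr921* and *Olfr714* are lowest at 100%. The 1% and 100% groups share their control mice, and the 0.01% group has other control mice and another title prefix.

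Some receptors raised by undiluted SBT were also called for other odorants against other control mice. After 2,5-DMP, a pyrazine that the study tested, 9 of 1070 ORs were higher (0.841%), and 4 of the 9 (44.4%, and 3.57% of the 112) were higher here: *Olfr376*, *Olfr502*, *Olfr694* and *Olfr1012*. *Olfr376* stood at 1.98 ± 0.32 after 2,5-DMP and 2.54 ± 0.31 after undiluted SBT, and *Olfr502* at 2.04 ± 0.32 and 2.06 ± 0.42. After (E)-β-farnesene, 19 of 1071 ORs were higher (1.77%), and 4 of the 19 (21.1%, and 3.57% of the 112) were higher here. *Olfr11* stood at 2.75 ± 0.26 after farnesene and 3.00 ± 0.32 here, *Olfr706* at 2.15 ± 0.31 and 3.23 ± 0.38, *Olfr701* at 2.62 ± 0.26 and 3.27 ± 0.53, and *Olfr705* at 1.82 ± 0.29 and 1.72 ± 0.32. The last 3 lie in 1 run on chromosome 7. After DHB, another male urine volatile, 6 of 1064 were higher (0.564%), and 3 of the 6 (50%, and 2.68% of the 112) were higher here, namely *Olfr1353*, *Olfr531* and *Olfr46*. After 100 μM MTMT, 3 of 1068 were higher (0.281%), *Olfr1295*, *Olfr165* and *Olfr56*, and none of these passed edgeR's or DESeq2's test here, with 1 higher at an unadjusted p under 0.05. Against the 10.7% of all ORs called here, the shares for 0.01% SBT, 2,5-DMP, farnesene and DHB were larger, in lists of 19 ORs at most.

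Calls were also counted among the most frequent receptors. Of the 50 ORs with the largest mean share of reads in 18 other control libraries, 13 were higher (26.0%, against 10.7% of all ORs) and 3 lower, with a median log2 fold change of -0.09 against -0.07 over all ORs. Frequent ORs have more reads behind each fold, and how far that moves their share of calls was not tested.

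Of the 8 lower receptors, *Olfr642*, a class I OR, had the largest change. It stood at 5249.7, 4501 and 3073 scaled reads in the control mice and at 1465, 466 and 956 in the SBT mice (log2 fold change -2.16 ± 0.41, adjusted p = 0.00263). *Olfr140* went from 29769, 30535 and 29208 to 15579, 16891 and 12595 (log2 fold change -0.99 ± 0.20, adjusted p = 0.00504). The groups were tight for *Olfr140* and wide for *Olfr642*, and neither overlapped. The other 6 were *Olfr749* (-1.15), *Olfr1258* (-1.01), *Olfr809* (-1.64), *Olfr48* (-1.44), *Olfr212* (-1.0) and *Olfr550* (-1.31), with adjusted p from 0.0258 to 0.0492. *Olfr140*, *Olfr1258* and *Olfr48* lie on chromosome 2 within chr2:89841793-90063594. None of the 8 was past the threshold under all 17 alternatives, and with the replicate number as a block *Olfr809* had an adjusted p of 0.0542, within a range of 0.0101 to 0.159 over the alternatives. *Olfr642* and *Olfr140* stayed past 0.05 whichever library was left out, and the other 6 did not. The 8 became 3 without control mouse 1, 2 without SBT mouse 1 and 4 without SBT mouse 3. Of transcripts of *Olfr749*, 44.2% of the 50-base stretches occur in another OR, most like *Olfr747*, so its reads are uncertain.

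Around the threshold, *Olfr342* (2.16 ± 0.64), *Olfr48* (-1.44 ± 0.43), *Olfr212* (-1.0 ± 0.30), *Olfr550* (-1.31 ± 0.40) and *Olfr930* (2.00 ± 0.61) were just inside, with adjusted p up to 0.04998. The calls of *Olfr342* and *Olfr930* were lost without SBT mouse 1, 2 or 3, among others (adjusted p up to 0.181 and 0.225). *Olfr1085* (2.34 ± 0.72), *Olfr557* (-1.16 ± 0.36), *Olfr397* (1.32 ± 0.41), *Olfr494* (-2.51 ± 0.79) and *Olfr655* (-1.35 ± 0.43) were just outside, with adjusted p from 0.0537 to 0.0609. With the replicate number as a block, *Olfr1085*, *Olfr557*, *Olfr397* and *Olfr655* passed, at adjusted p of 0.0365, 0.0140, 0.00386 and 0.0415, and the highest adjusted p of these 4 over the alternatives was 0.301, 0.314, 0.225 and 0.225. *Olfr1085* had 0, 16 and 5 reads in the control mice and 53, 58 and 36 in the SBT mice.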

How the data were processed

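The 6 libraries were made by the authors by pS6 immunoprecipitation from whole olfactory mucosa and amplification with a SMART-Seq kit, which does not mark strand and carries no molecular identifiers. The authors aligned the reads with STAR (at most 10 positions per read) to GRCm38 after removing 1 gene model, estimated counts with RSEM and kept the intact OR genes, so a read shared by near-identical ORs was divided between them. The deposited expected counts per OR and library are not normalized, and they were rounded to whole numbers for the tests. Columns of the authors' own edgeR comparison (log2 fold change, level, test statistic, p-value and FDR) were not used. Another table holds 6 per-sample columns that match no sample in the labels, and it was not used.

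The quasi-likelihood test of edgeR 4.0.16 (glmQLFit and glmQLFTest, R 4.3.3) was run on ORs whose 6 libraries together held 10 reads or more. TMM factors were computed from OR reads, and p-values were adjusted by Benjamini-Hochberg across all ORs in the fit, with a threshold of 0.05. The standard error is the fold change divided by the square root of F. The biological coefficient of variation was 0.425, and replicate pairs differed by 5.58 to 9.29 times counting noise (chi-squared per degree of freedom). Each mouse gave 1 library, so differences between mice and between library preparations cannot be told apart in this spread. On simulated data the test recovered 8.20% of 195 changed ORs at a log2 fold change of 1. It recovered 67.5% of 200 at 2 and 90.5% of 199 at 3. Of the calls made there, 11.1%, 4.93% and 4.3% were wrong, in that order. Changed ORs were set higher or lower at random, whereas most calls here were higher. Recovery under mostly upward changes was not tested. Members of the lists were chosen with earlier results of these data known. The mice are described as litter matched, and deviations from the group mean correlated between odor and control libraries of equal number (r = 0.12, 0.14 and 0.14), so the numbers were taken as pairs in the blocked fit. Standard errors cover the spread between libraries, each from its own mouse, and the floor of 3 reads covers counting error only.

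Named ORs were the 20 higher and 8 lower with the lowest p, the 5 largest folds among higher ORs, the ORs the study names, those called at 0.01% SBT, members of the 3 largest runs of neighbouring calls (ties by position) and the 5 on either side of the threshold. Others were named after their values were seen. Positions, coding sequences and the 50-base stretches shared by ORs were read from GENCODE M21 on GRCm38, in which all 1117 ORs matched by Ensembl ID. Class I ORs were those on chromosome 7 between 101 and 106 Mb. Protein identity was computed with Biopython 1.88 from translated coding sequences as identical residues over the longer protein. Alternatives were the replicate block, DESeq2 1.42.0 without independent filtering, library totals, RLE factors, a TMM trim of 0.45, no filter beyond 1 read, filterByExpr, a likelihood ratio test, a fit of 9 libraries, thinning, each library left out and replicates 1 and 2 alone.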

Additional observations from a re-analysis of the deposited data

How the results depend on the processing

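Over the 17 alternatives the count of higher ORs ran from 62 to 135, against 112, and fell by more than 1.5 times only with replicates 1 and 2 alone (62). The count of lower ORs, 8, was 18 with the replicate block, 17 with DESeq2, 42 with library totals, 25 with the likelihood ratio test, 2 in the fit of 9 libraries and 1 with replicates 1 and 2 alone. With a library left out it ran from 2 to 10, and the higher count from 87 to 117. With library totals the median log2 fold change of all ORs also moved, from -0.07 to -0.47, and the higher count was 85. Fits with a library left out or with replicates 1 and 2 alone have fewer samples. Why the counts of lower ORs moved was not tested. The whole-library scaling was not run, since no per-sample column gives values scaled to the whole library. The replicate block ended the call of *Olfr809*, added those of *Olfr912*, *Olfr1085*, *Olfr557*, *Olfr397* and *Olfr655* and changed no other call among the 63 named ORs. Of 1070 comparisons of a named OR with an alternative, 934 kept direction and side, 95 lost the threshold, 36 passed it and 5 changed sign, none of them a called OR. These were *Olfr1295* with replicates 1 and 2 alone (0.13), and 3 ORs with a library left out. Over the left-out libraries *Olfr1295* ranged from -0.31 to 0.0047 (highest without control mouse 3), *Olfr235* from -0.53 to 0.011 (without SBT mouse 1) and *Olfr714* from -0.87 to 0.49 (above 0 without SBT mouse 1, at 0.39, or control mouse 3). The class I share fell by 4.84 percentage points in the mean, between -5.22 and -4.50 with a library left out and -4.83 after thinning. The number of ORs making up 50% of the reads differed by -30, between -34.2 and -25.7 with a library left out and -29.3 without thinning. Depth limits the scarce ORs most: ORs below 10 reads over the 6 libraries were not tested.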
